A study of Mus musculus with 12 samples.

Results

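Reads of chromatin immunoprecipitation libraries were counted over 10 imprinted genes that depend on a germline methylation mark: Peg10, Sgce, Mest, Peg3, Usp29, Plagl1, Impact, Igf2r, Airn and Rasgrf1. The genes were chosen by name, not by their reads, though earlier results of these data were known. Each gene was taken with 5 kb on either side, and the 10 gene windows cover 815 distinct bins of 1 kb, of 2,462,755 autosomal bins in all. Neighbouring genes share bins: 11 are common to Peg10 and Sgce, 11 to Peg3 and Usp29, and 39 to Igf2r and Airn. In addition, 7 windows of 41 bins in all were set by hand, from general knowledge of the loci, around the germline differentially methylated region (DMR) of each locus. Of these 41 bins 25 lie inside the gene windows, and the 16 bins of the Rasgrf1 DMR lie upstream of that gene's window.

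The study mapped the DNA-binding zinc-finger protein GZF1 in embryonic stem cells of the mouse. Their chromatin was fixed with 1% formaldehyde and cut with micrococcal nuclease. Of its 12 libraries 8 were analysed here, each the only one analysed of its line, genotype and antibody. A further anti-FLAG library of RGM with Gzf1-Flag was not analysed here. The Cas9-GFP line (Cas9 below) gave 3 anti-GZF1 libraries, of wild type, of a control and of a Gzf1 knockout, and further ones of clone 35 with overexpressed Gzf1-Flag and anti-FLAG, wild type with anti-H3K27ac, and input chromatin. In RGM, a line with 129 and CAST genomes, they were wild type with anti-GZF1 and clone 56 with overexpressed Gzf1-Flag and anti-FLAG. Gzf1-Flag was expressed ectopically, and each anti-FLAG library is a single clone. The anti-FLAG libraries of cells without Gzf1-Flag were not analysed here, so no anti-FLAG background was measured. Reads were not split by allele.

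Imprinted genes are expressed from the allele of one parent. The choice is set by DNA methylation laid down in the egg or the sperm at a germline DMR and kept on that allele after fertilisation. In embryonic stem cells ZFP57 binds the methylated copy at the hexamer TGCCGC and recruits KAP1 (Trim28), which brings repressive histone and DNA methylation. Of the 7 DMRs described here the one upstream of Rasgrf1 is methylated on the paternal allele and the other 6 on the maternal allele. Of the genes 9 are expressed from the paternal allele and Igf2r from the maternal allele.

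The sequences just upstream of 4 transcription starts, and the stretch between Peg3 and Usp29, are shown because the results below turn on these starts, a choice made after the values were seen. They are from RefSeq (GRCm38.p6, the mm10 assembly), 5′ to 3′ on the strand of the gene, with TGCCGC or its reverse complement GCGGCA in capitals. Igf2r is shown from the minus strand (chr17:12769707-12769956). Airn (chr17:12741061-12741310), Mest (chr6:30737800-30738049), Plagl1 (chr10:13090582-13090831) and the stretch between Peg3 and Usp29 (chr7:6730463-6730558) are from the plus strand.
Igf2r: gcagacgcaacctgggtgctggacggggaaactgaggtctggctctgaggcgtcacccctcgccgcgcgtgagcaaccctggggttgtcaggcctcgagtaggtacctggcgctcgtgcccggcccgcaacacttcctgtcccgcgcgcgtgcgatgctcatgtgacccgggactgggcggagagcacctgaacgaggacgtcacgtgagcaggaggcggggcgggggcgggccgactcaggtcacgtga
Airn: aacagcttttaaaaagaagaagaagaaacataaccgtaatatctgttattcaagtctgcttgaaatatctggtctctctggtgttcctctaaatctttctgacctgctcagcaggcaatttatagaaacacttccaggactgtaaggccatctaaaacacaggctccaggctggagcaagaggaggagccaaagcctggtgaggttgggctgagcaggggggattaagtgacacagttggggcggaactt
Mest: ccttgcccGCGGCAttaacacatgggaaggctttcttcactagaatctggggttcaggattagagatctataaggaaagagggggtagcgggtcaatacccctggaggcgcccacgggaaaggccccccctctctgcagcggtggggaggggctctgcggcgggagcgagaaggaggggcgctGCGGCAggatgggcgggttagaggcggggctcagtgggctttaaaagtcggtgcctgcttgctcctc
Plagl1: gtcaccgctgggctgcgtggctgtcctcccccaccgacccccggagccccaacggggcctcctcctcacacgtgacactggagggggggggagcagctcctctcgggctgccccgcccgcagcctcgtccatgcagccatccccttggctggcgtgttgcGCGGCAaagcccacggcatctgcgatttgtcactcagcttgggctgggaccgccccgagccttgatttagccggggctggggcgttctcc
Peg3-Usp29: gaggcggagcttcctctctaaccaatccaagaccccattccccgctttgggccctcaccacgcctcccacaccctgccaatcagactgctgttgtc
The Igf2r and Airn stretches differ most in CpG sites. In the RefSeq promoter table, which runs from 250 bases before to 50 bases after a start, the Igf2r promoter held 34 CpG sites, more than 92.0% of 31,365 promoters, and the Airn promoter 3. Between them were Plagl1 and Rasgrf1 with 26 each, the downstream promoter of Mest and that of Usp29 with 17 each and Peg3 with 13, and the median of all promoters was 7. The upstream Mest promoter had 8 CpG sites and 0 hexamers. The hexamer was found 2 times in the downstream Mest promoter and 1 time in that of Plagl1, and in none of the promoters of Igf2r, Airn, Peg3, Usp29 and Rasgrf1. It was present in 11.6% of all promoters, on either strand. A search for TGCGC followed after 3 bases by TATA, the core letters of the site bound by GZF1, found it in 4 of the 31,365 promoters and in none of these genes. Peg10, Sgce and Impact were not searched.

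Read density below is the mean number of reads per bin divided by that library's own mean over autosomal bins, given with a 95% exact Poisson interval. Local fold is the density of a bin over the median of the 20 bins around it, 10 on each side, and its interval takes that median as fixed. The libraries held 10.1 M (input) to 94.2 M reads (control), or 3.93 to 35.8 per autosomal bin. All intervals cover counting error only, and with 1 analysed library per group no test between groups was possible. Genes known from embryonic stem cells (Pou5f1, Nanog, Sox2, Zfp42 and Dppa5a) had H3K27ac densities of 1.75 to 2.28 and genes of differentiated cells (Alb, Myh6, Cd3e, Hbb-bs and Col1a2) of 0.913 to 1.58. Input split the lists likewise, with 1.59 to 2.34 and 0.700 to 1.68, so the densities do not show H3K27ac at the stem cell genes. Their highest local folds in a bin were 1.33 to 1.94 and 1.51 to 2.97, so local H3K27ac folds did not separate the stem cell genes from the others. The control and knockout libraries stand apart from the other 6. They held reads (a density of at least 0.5 in both) in 29,632 autosomal bins that were at 0 in the other 6 libraries, while 0 bins showed the reverse. None of the 29,632 bins lies in a gene window described here.

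Over whole gene windows the densities ran from 0.848 to 2.4. The paternally expressed pair Peg10, a gene derived from a retrotransposon and needed in the placenta, and Sgce, which encodes epsilon-sarcoglycan, ran highest in RGM. The Peg10 window had densities of 1.73 (Cas9) and 2.36 (RGM) for anti-FLAG, 1.86 and 2.4 for wild-type anti-GZF1, 1.68 in the control, 1.73 in the knockout, 1.92 with H3K27ac and 1.58 in input. The RGM values go with the chromosome: all of chromosome 6 had a mean density of 1.35 and 1.32 in the RGM libraries against 1.02 and 1.04 in the matching Cas9 libraries. At the low end was Rasgrf1, which encodes an exchange factor for Ras, with 1.04 to 1.20 in all 8 libraries. Igf2r, the receptor that clears IGF2, and Airn, the long non-coding RNA that silences it, had 0.848 to 0.953 in the control and knockout and 1.35 to 1.49 in the other 6 libraries. Chromosome 17 as a whole had 0.853 and 0.858 in the control and knockout and 1.02 to 1.13 in the others. Mest, also on chromosome 6, had 1.76 in Cas9 and 1.78 in RGM with anti-FLAG. The part of whole chromosomes in these densities was not tested, and local folds and ratios relative to the surrounding 1 Mb are given below.

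**Figure D1:**
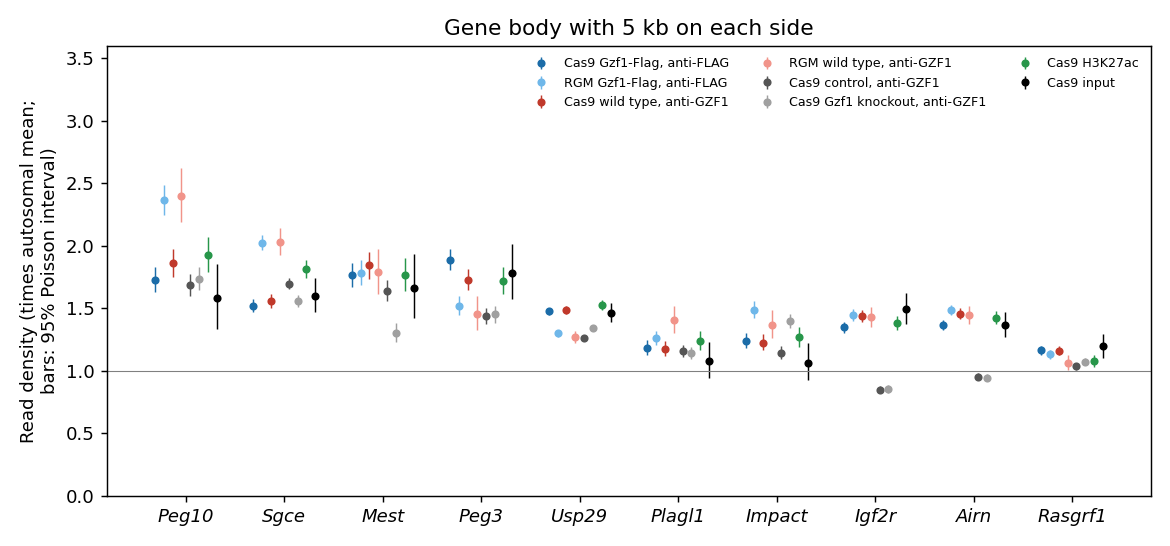
Read density of each gene body with 5 kb on each side (vertical axis, times the autosomal mean, linear from 0) for the 10 genes in 8 libraries, with 95% exact Poisson intervals. Igf2r and Airn lie below 1 in the control and knockout only, and Peg10 and Sgce are highest in the RGM libraries.

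Bins with a local fold of 2 or more were about as frequent in the gene windows as in all autosomes, or less so, in every library but the control and knockout. With anti-FLAG 14 of 815 bins passed in Cas9 (background 1.62% of autosomal bins, members 1.72%) and 10 in RGM (background 2.64%, members 1.23%). Wild-type anti-GZF1 gave 14 bins in Cas9 (background 2.43%) and 50 in RGM (background 9.74%). H3K27ac gave 12 bins (background 3.52%) and input, at 3.93 reads per bin, 101 (background 17.9%). The control and the knockout each gave 4 bins, or 0.491% (background 0.278% and 0.325%). Passing in both lines were 4 bins with anti-FLAG, or 0.491% against a background of 0.665%, and 8 bins with wild-type anti-GZF1, or 0.982% against 1.13%.

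All but 1 of the bins that passed in both lines lay at a DMR or a gene start. All 4 anti-FLAG bins shared by the lines were among the 41 DMR bins (9.76%), as were 5 of the 8 anti-GZF1 bins (12.2%). They belong to 2 loci for anti-FLAG, Peg10-Sgce with 1 bin and Peg3-Usp29 with 3. The 8 anti-GZF1 bins lie at Peg10-Sgce, Peg3-Usp29, Plagl1, Igf2r and Rasgrf1. DMR bins were also frequent among those that passed in the control and knockout. Of the 41 DMR bins 3 passed in the control (7.32%, background 0.278%) and 2 in the knockout (4.88%, background 0.325%). Cas9 wild-type anti-GZF1 had 6 (14.6%, background 2.43%) and input 9 (22.0%, background 17.9%). Transcription starts anywhere in the genome are the closer background, a comparison added after the data were seen. Of the bins with a start listed by RefSeq promoters, 14.0% passed with anti-FLAG in both lines, against 1 of 7 such bins of these genes. With wild-type anti-GZF1 26.8% passed, against 4 of 7. The start bins of Peg10-Sgce and Impact are not among the 7, as these genes are not in the promoter table. That of Peg10-Sgce passed with both antibodies in both lines and that of Impact with neither. Input also rose at starts: 28.1% of all start bins had an input fold of 2 or more. In the Cas9 wild-type anti-GZF1 library 29.0% of start bins passed, and in the control and knockout 6.26% and 5.97%.

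**Figure D2:**
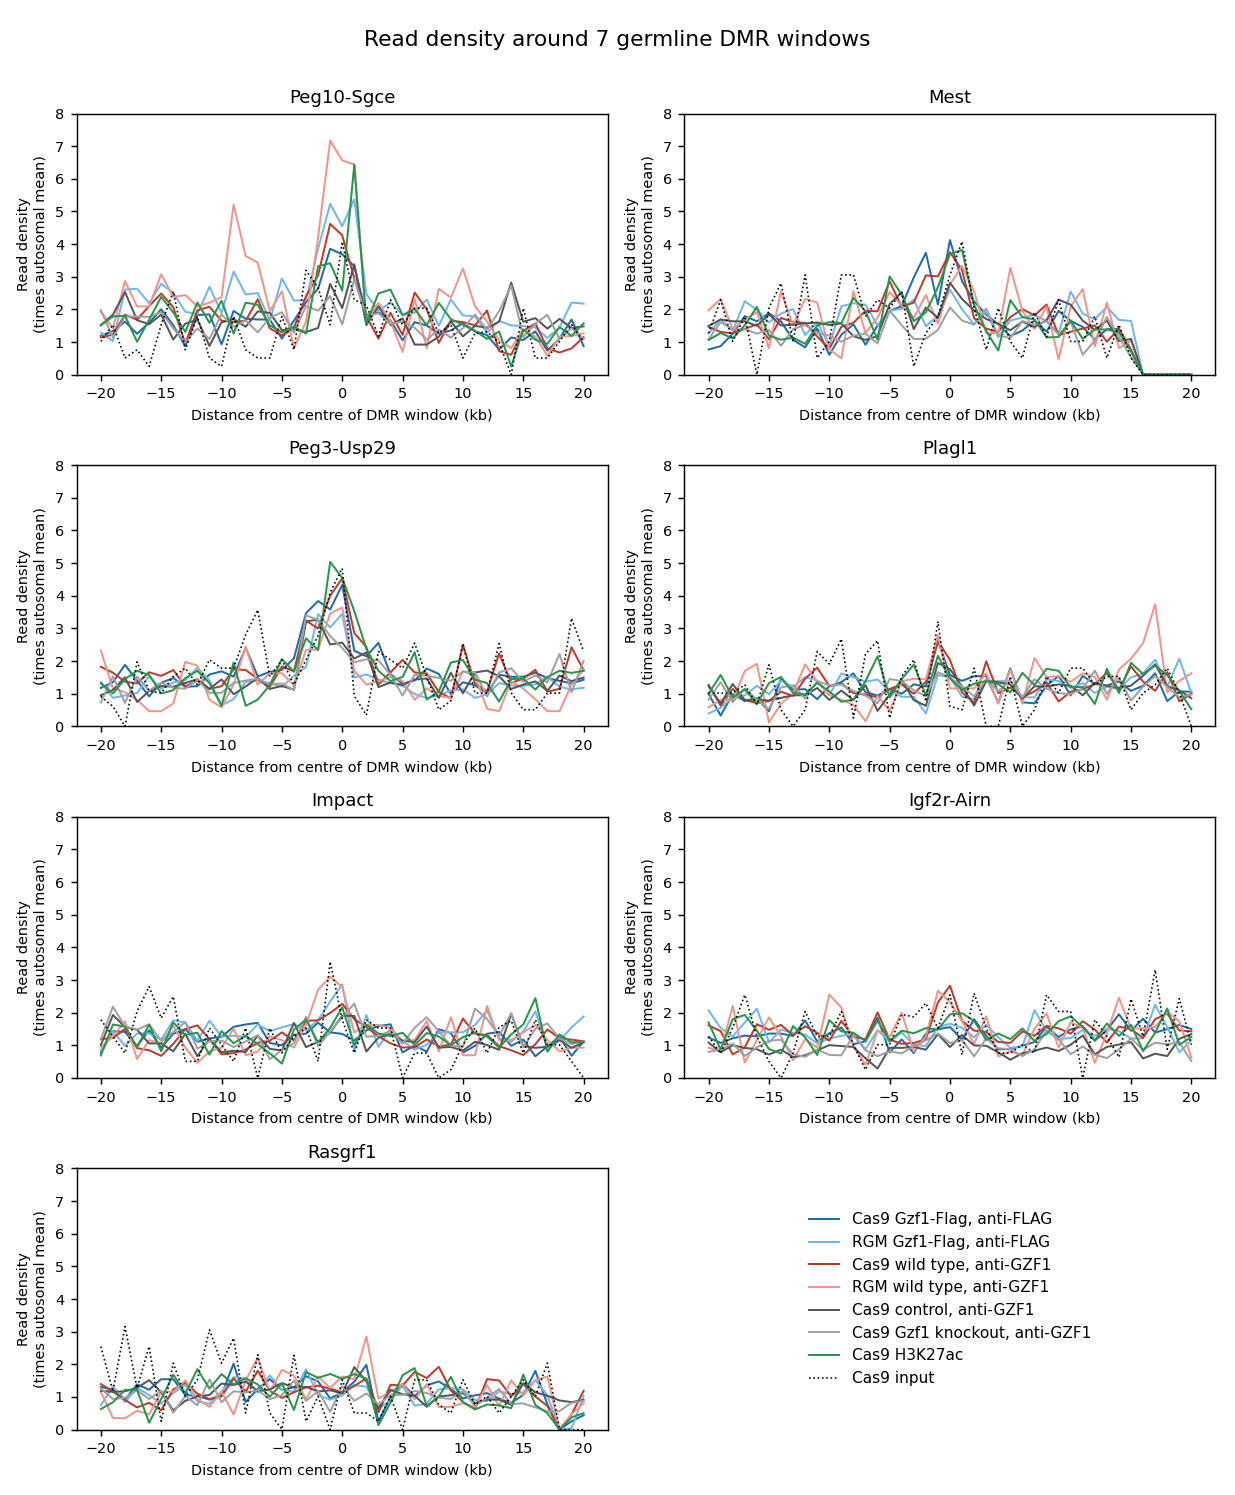
Read density (vertical axis, times the autosomal mean) in 1 kb bins from 20 kb before to 20 kb after the centre of each germline DMR window (horizontal axis, kb, in the direction of increasing coordinate), 1 panel per locus and 1 line per library. Peg10-Sgce and Peg3-Usp29 show a rise at the centre in every library, input included, and the Rasgrf1 window shows none. Mest shows a rise in some libraries only: the median local fold of its window was 1.83 in Cas9 anti-FLAG, 1.05 in RGM anti-FLAG and 1.02 in input. To the right of Mest the 5 bins from 16 to 20 kb held 0 reads in all 8 libraries.

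For scale, the bin with the anti-FLAG peak between Dlk1 and Meg3, the imprinted locus named in the study's title (chromosome 12, 109,527,001 to 109,528,000), had local folds of 12.2 (11 to 13.5) in Cas9 and 10.1 (9.17 to 11) in RGM. Wild-type anti-GZF1 gave 3.06 and 2.91, the control 1.21 and the knockout 0.237 (0.0769 to 0.552). The highest bin at each locus described below, taken by the lower of the lines, reached an anti-FLAG fold between 1.43 and 2.54 in the lower line. For anti-FLAG none of these 7 bins had an interval that overlapped that of the Dlk1-Meg3 bin in either line. That gap does not extend to wild-type anti-GZF1 at Peg10-Sgce, Peg3-Usp29, Igf2r and Rasgrf1. Their bins were close to the Dlk1-Meg3 bin, with 2.68 and 3.06, 2.66 and 2.61, 2.99 and 3.36, and 2.62 and 3.33. The Plagl1 bin had 0.895 in Cas9 and 2.36 in RGM, and the Impact bin 1.54 and 0.5. The Mest bin had 2.0 in Cas9.

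**Figure D3:**
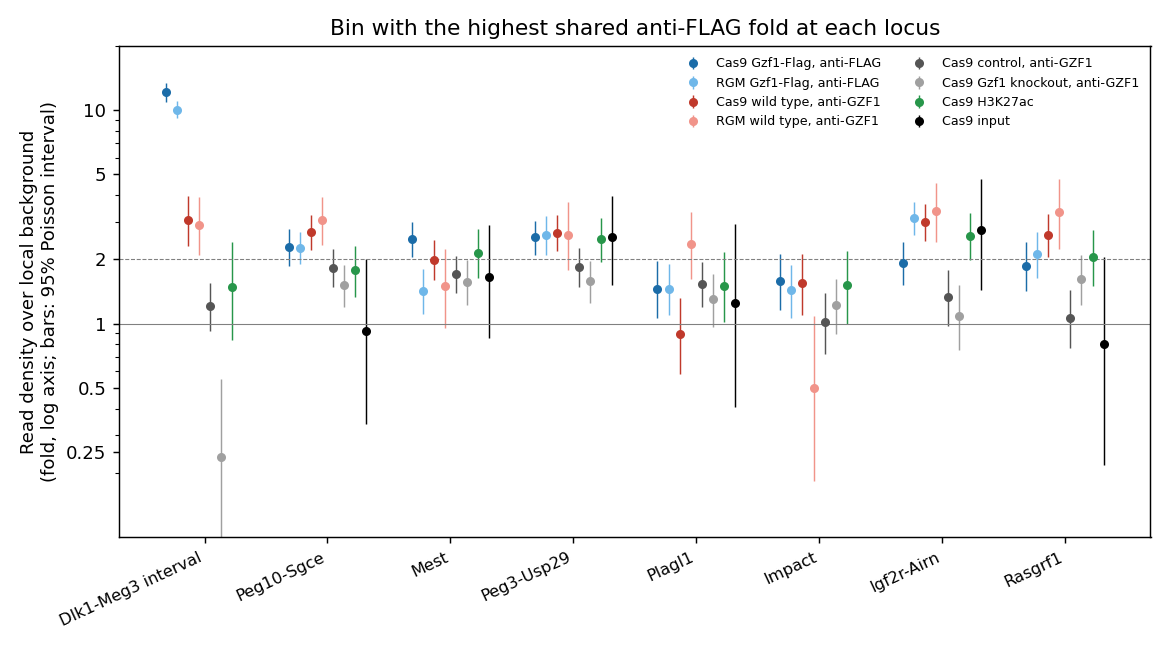
Local fold (vertical axis, log scale) with 95% exact Poisson intervals of the bin with the highest anti-FLAG fold in the lower line at each of 7 loci and, for scale, between Dlk1 and Meg3. Dashed and solid grey lines mark folds of 2 and 1, and bins with 0 reads (input at Dlk1-Meg3 and Impact) are not drawn. The Dlk1-Meg3 bin is above 10 with anti-FLAG in both lines, and the other bins lie at or below 3.12 with that antibody.

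At the Peg10-Sgce DMR, whose window spans the diverging starts of the pair (chromosome 6, 4,746,001 to 4,750,000), all 8 libraries were above their autosomal mean. The density was 3.38 (3.04 to 3.74) with anti-FLAG in Cas9 and 4.75 (4.35 to 5.19) in RGM. It was 3.72 (3.34 to 4.13) and 6.10 (5.30 to 6.98) with wild-type anti-GZF1. The control had 2.41, the knockout 2.21, H3K27ac 3.94 and input 2.64 (1.90 to 3.58). Both anti-FLAG libraries were above the control and knockout beyond their intervals. Over input, Cas9 anti-FLAG was 1.28 times as dense (0.934 to 1.83), Cas9 wild-type anti-GZF1 1.41 times (1.03 to 2.02) and H3K27ac 1.49 times (1.08 to 2.15). The bin with both starts (4,747,001 to 4,748,000) held 104.9 and 138.5 anti-FLAG reads, 108.95 and 61.75 reads of wild-type anti-GZF1, 99.5 in the control, 79.25 in the knockout, 54.2 with H3K27ac and 6 in input. Its local folds were 2.28 and 2.27 with anti-FLAG and 2.68 and 3.06 with anti-GZF1, while the control had 1.83, the knockout 1.52 and input 0.923 (0.339 to 2.01). H3K27ac was highest in the bin from 4,749,001, at 3.65 times its surroundings. That bin and its neighbour from 4,748,001 each missed the anti-FLAG fold of 2 in 1 line only, with 1.98 in Cas9 and 1.98 in RGM.

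Peg3, a zinc-finger protein linked to growth and maternal care, and Usp29, a member of the ubiquitin protease family, diverge from the short stretch printed above. Their DMR (chromosome 7, 6,727,001 to 6,733,000) had anti-FLAG densities of 3.28 (3.01 to 3.57) in Cas9 and 2.47 (2.23 to 2.73) in RGM, where wild-type anti-GZF1 had 3.34 and 2.46. Control and knockout had 2.65 and 2.64, H3K27ac 3.42 and input 2.51 (1.91 to 3.23). The RGM values lay within the interval of input, which is of Cas9 and not of RGM. The control and knockout were denser here than at any of the other 6 DMRs. In the start bin (6,730,001 to 6,731,000) the local fold was 2.54 and 2.60 with anti-FLAG, 2.66 and 2.61 with anti-GZF1, 1.85 in the control, 1.58 in the knockout, 2.49 with H3K27ac and 2.53 (1.53 to 3.96) in input. Both antibodies, H3K27ac and input were thus all raised by a similar amount. In the bin from 6,728,001 the control and knockout, with 2.36 and 2.22, were as high as anti-FLAG, with 2.25 and 2.49.

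Mest, which encodes a protein of the hydrolase family found in mesoderm, differed between the lines. Its DMR window (chromosome 6, 30,734,001 to 30,740,000) had 492.0 reads with anti-FLAG in Cas9 and 310.6 in RGM, densities of 3.01 (2.75 to 3.29) and 1.96 (1.74 to 2.19). With wild-type anti-GZF1 the densities were 2.82 (2.55 to 3.12) and 2.4 (2.0 to 2.86). The control had 2.05, the knockout 1.47, H3K27ac 2.65 and input 2.08 (1.54 to 2.75). The Cas9 anti-FLAG density was above input by 1.45 times (1.08 to 1.99). That of RGM was 0.940 times the same Cas9 input (0.695 to 1.30), a ratio that also holds any difference between the lines. Chromosome 6 as a whole had a mean density of 1.35 in RGM anti-FLAG and 1.05 in the Cas9 input. In the bin from 30,737,001, just before the downstream start whose upstream sequence is printed above, the local fold was 2.49 (2.06 to 3.0) with anti-FLAG in Cas9 and 1.43 (1.11 to 1.81) in RGM. The upstream start (30,733,506) had anti-FLAG folds of 1.36 and 1.1 in its bin.

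At the receptor gene Igf2r the local folds were higher at the promoter than at the DMR for anti-FLAG and wild-type anti-GZF1 alike. The Igf2r start bin (chromosome 17, 12,769,001 to 12,770,000) held 76.15 and 131.15 anti-FLAG reads, 101.75 and 42 reads of wild-type anti-GZF1, 43.9 in the control, 34.15 in the knockout, 62 with H3K27ac and 12.45 in input. Local folds were 1.93 (1.52 to 2.42) and 3.12 (2.60 to 3.70) with anti-FLAG and 2.99 (2.44 to 3.63) and 3.36 (2.42 to 4.54) with anti-GZF1. H3K27ac had 2.58 (1.98 to 3.31) and input 2.75 (1.44 to 4.76). The control had 1.34 (0.970 to 1.79) and the knockout 1.09 (0.753 to 1.52), and neither interval overlapped that of the Cas9 wild-type library with the same antibody. The Cas9 control and wild type thus differed at this start although neither is labelled as lacking Gzf1, and over all start bins the control had a median fold of 1.19, the knockout 1.18 and Cas9 wild type 1.42. What separates these libraries was not tested. The Airn start and DMR (12,741,001 to 12,743,000), in an intron of Igf2r, had anti-FLAG densities of 1.53 (1.21 to 1.89) and 1.61 (1.28 to 1.99). Both were below the 2.04 (1.16 to 3.31) of the Cas9 input though within its interval. Wild-type anti-GZF1 had 2.57 and 2.5, H3K27ac 1.72, the control 1.15 and the knockout 1.22. The anti-GZF1 folds of its bins were 1.73 and 2.13 (1.65 to 2.71) in Cas9 and 2.11 (1.34 to 3.17) and 1.70 in RGM, so 1 bin passed in each line but not the same bin.

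Plagl1, a zinc-finger transcription factor of growth control, had its highest local fold at the start bin (chromosome 10, 13,090,001 to 13,091,000), inside the DMR window, in Cas9 anti-FLAG and Cas9 wild-type anti-GZF1. In the other 6 libraries another bin of the gene window was highest, as in RGM with 1.67 for anti-FLAG and 3.46 for anti-GZF1. The local fold there was 2.12 with anti-FLAG in Cas9 and 1.14 in RGM, 2.36 and 2.41 for wild-type anti-GZF1, 1.62 in the control, 1.40 in the knockout and 1.64 with H3K27ac. Anti-FLAG was lower in RGM than in Cas9 here, and input had 2.52. The 4 bins of the DMR window had densities of 1.70 (1.47 to 1.97) with anti-FLAG in Cas9 and 1.1 (0.905 to 1.31) in RGM, and of 1.76 and 1.64 with anti-GZF1. The other Plagl1 bin that passed with anti-GZF1 in both lines (13,127,001 to 13,128,000), with 2.05 and 2.18, lies near the far end of the gene and had 2.60 with H3K27ac.

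Impact, which restrains the amino acid sensor kinase GCN2, carries its DMR inside the gene (chromosome 18, 12,972,001 to 12,975,000). The window had densities of 1.30 (1.06 to 1.57) and 2.01 (1.71 to 2.35) with anti-FLAG, 2.02 and 2.43 with anti-GZF1, 1.73 in the control, 1.85 in the knockout, 1.57 with H3K27ac and 2.04 (1.31 to 3.03) in input. Cas9 anti-FLAG was the lowest of the 8 libraries. No bin of the Impact window passed in both lines with either antibody. The bin at the start of the Impact gene record had anti-FLAG folds of 1.18 and 1.05 and wild-type anti-GZF1 folds of 1.04 and 1.00. There the control had 1.74 (1.35 to 2.20) and the knockout 1.54 (1.20 to 1.94). Impact has no start in the promoter table, so this bin may not hold its promoter.

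The paternally methylated DMR upstream of Rasgrf1 (chromosome 9, 89,869,001 to 89,885,000) had anti-FLAG densities of 1.24 and 1.17, anti-GZF1 densities of 1.30 and 1.5 in wild type, 1.22 in the control, 1.06 in the knockout, 1.32 with H3K27ac and 0.860 (0.646 to 1.12) in input. It was the only one of the 7 windows with an input density below 1. Over input, Cas9 anti-FLAG was 1.44 times as dense (1.09 to 1.95) and Cas9 wild-type anti-GZF1 1.51 times (1.14 to 2.04). The control was 1.42 times as dense as input (1.07 to 1.91) and H3K27ac 1.53 times (1.15 to 2.09). A ratio to input of the size seen at the Mest DMR was thus also found here, in the control too. The median local fold of the 16 bins of the Rasgrf1 DMR lay between 0.991 and 1.20 in the 7 antibody libraries. At the Rasgrf1 start, by contrast (89,909,001 to 89,910,000), local folds were 1.87 (1.43 to 2.4) and 2.11 (1.64 to 2.68) with anti-FLAG and 2.62 (2.06 to 3.28) and 3.33 (2.25 to 4.76) with anti-GZF1. H3K27ac had 2.06, the control 1.06 (0.767 to 1.44), the knockout 1.62 (1.23 to 2.10) and input 0.80 (0.218 to 2.05), which was 4 reads. As in the Peg10-Sgce start bin, input was not above its surroundings here.

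The knockout was compared with the control, both Cas9 with anti-GZF1, as a ratio of densities with a 95% Clopper-Pearson interval. This compares 2 libraries and not 2 conditions. The Dlk1-Meg3 bin had a ratio of 0.0914 (0.0288 to 0.227), and 0.116 (0.0364 to 0.287) relative to the ratio of the surrounding 1 Mb. There the control had a local fold of 1.21 (0.920 to 1.56) and the knockout held 5 reads. The control was thus not raised above its surroundings beyond its interval, so this ratio cannot show the loss of a peak. Of the 10 gene windows 2 had an interval below 1 (background 20.5% of all gene windows), Sgce with 0.918 and Mest with 0.795 (0.735 to 0.859), and 2 had one above 1 (background 21.5%), Usp29 with 1.06 and Impact with 1.22. Relative to the ratio of the surrounding 1 Mb, the Sgce ratio was 0.990 and that of Impact 1.02, both with intervals that hold 1. After that step 1 window was below (background 9.21%), Mest with 0.921 (0.852 to 0.996), and 2 were above (background 9.74%), Peg10 with 1.11 and Usp29 with 1.04. Shares of 1 and 2 in 10 are near the background.

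Among the DMR windows 2 had a knockout ratio below 1 on both scales. Mest had 0.717 (0.617 to 0.835), which became 0.833 (0.717 to 0.970) once set against the surrounding 1 Mb. Of all autosomal windows of 6 bins with at least 100 reads in the pair of libraries, 9.13% had a lower ratio on that scale. Rasgrf1 had 0.872 (0.778 to 0.975), and 0.863 (0.770 to 0.966) relative to its surroundings, with 4.71% of windows of 16 bins lower. The intervals of the other 5 windows held 1 on both scales: relative to the surroundings their ratios ran from 0.892 at Impact to 1.04 at Igf2r-Airn. In the start bins of Igf2r and Rasgrf1 the ratios were 0.845 (0.520 to 1.34) and 1.49 (0.972 to 2.25). Reads over Gzf1 itself gave 0.762, and 1.00 (0.866 to 1.16) relative to the surrounding 1 Mb, so the knockout label could not be checked from these reads.

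RGM and Cas9 were compared in the same way, a comparison chosen after the data were seen. The surrounding 1 Mb had anti-FLAG ratios of 1.41 at Mest and 1.40 at Peg10-Sgce, both on chromosome 6, so ratios relative to it are given. The Mest DMR had 0.461 (0.399 to 0.533) with anti-FLAG and 0.654 (0.530 to 0.801) with wild-type anti-GZF1, so RGM was lower with both antibodies. Only 0.535% of autosomal windows of 6 bins were lower with anti-FLAG, and 6.51% with anti-GZF1. Without that step the Mest ratios were 0.649 (0.562 to 0.750) and 0.850 (0.688 to 1.04). The whole Mest gene window had 0.718 and 0.743, but without that step 1.01 (0.934 to 1.1) and 0.970 (0.863 to 1.09), so its lower value appears only relative to the surroundings.

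The Plagl1 DMR had an anti-FLAG ratio of 0.556 (0.437 to 0.705), with 1.22% of windows of 4 bins lower, and an anti-GZF1 ratio of 0.818 (0.589 to 1.11). The Impact DMR was the only one of the 7 whose anti-FLAG interval lay above 1, at 1.32 (1.03 to 1.71), and had 1.03 (0.754 to 1.40) with anti-GZF1. Of autosomal windows of 3 bins, 11.996% were higher than Impact with anti-FLAG. With anti-GZF1 Peg10-Sgce had 1.21 (1.02 to 1.45) and Rasgrf1 1.25 (1.06 to 1.47), where anti-FLAG gave 1.01 and 1.05 with intervals that hold 1. For anti-GZF1 22.3% of windows of 4 bins were higher than Peg10-Sgce, and 8.52% of windows of 16 bins higher than Rasgrf1. The raised values of Impact, Peg10-Sgce and Rasgrf1 were thus less rare among windows than the low anti-FLAG values of Mest and Plagl1. The Igf2r start bin was higher in RGM with anti-FLAG, 1.82 (1.36 to 2.45), and had 1.19 (0.812 to 1.72) with anti-GZF1. Of the 10 gene windows 3 were below 1 with anti-FLAG (background 18.7%) and 4 above (background 21.3%), and with anti-GZF1 1 was below (background 13.9%) and 2 above (background 18.0%). In 3 cases the interval lay on the other side of 1 without the correction. Usp29 then had 0.881 in place of 1.12 and Sgce 1.33 in place of 0.949 with anti-FLAG, and Usp29 0.851 in place of 1.07 with anti-GZF1. The lines differ in genome and clone, and there is no RGM input or H3K27ac among the libraries analysed, so line and antibody signal cannot be told apart here.

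**Figure D4:**
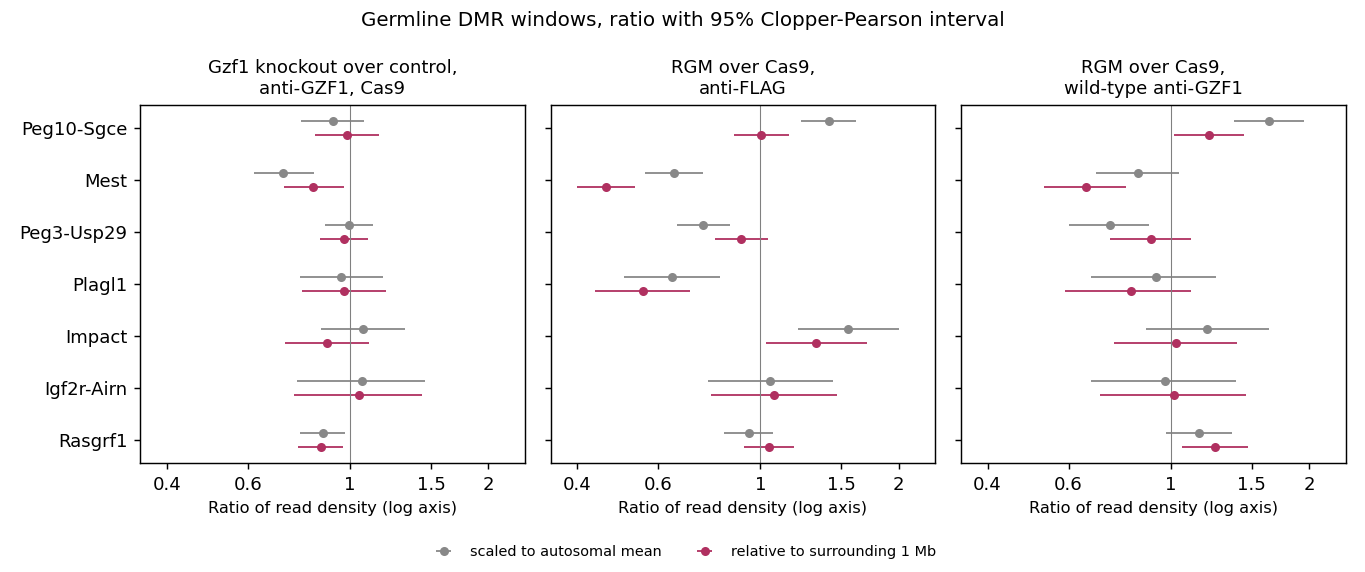
Ratio of read density at the 7 germline DMR windows (horizontal axis, log scale) with 95% Clopper-Pearson intervals, for knockout over control and for RGM over Cas9 with each antibody. Grey points are scaled to the autosomal mean and red points are relative to the surrounding 1 Mb. Mest lies below 1 in all 3 panels on the red scale.

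Other genes were counted in the same way with anti-FLAG in both lines. Of 12 imprinted neighbours 11 were matched, with 6 of their bins past the fold (0.559%). The highest were Copg2, a coat protein subunit gene that overlaps Mest at its end (3.64 in the lower line), and Klf14 (2.35), and the lowest was Slc22a2 (1.5). Of 16 other genes with germline methylation 15 were matched, with 16 bins (1.32%), highest at Snrpn (3.93) and Zrsr1 (3.56) and lowest at Mcts2 (1.37). The 8 genes that read or keep the methylated imprint had 4 bins (1.47%), with Uhrf1 at 2.25, the maintenance methyltransferase gene Dnmt1 at 2.04 and Zfp57 lowest at 1.18. The background of 0.665% given above is that of all autosomal bins. Of bins with a transcription start 14.0% passed, and starts were not counted apart in these lists. Their shares therefore cannot be read as an excess.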

How the data were processed

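The table holds 8 of the 12 libraries; the other 4 were not analysed here. The submitters' processing notes name cutadapt, Bowtie2 2.5.4, SAMtools, deepTools and the mm10 build. The values deposited by the authors are estimated counts of reads per 1 kb bin with no scaling to depth, all of them multiples of 0.05. Duplicate and mapping quality filters are not given in the sources used here.

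Each library was divided by its autosomal mean. Local background was the median of 10 bins on each side, and a fold of 2 counted as past the threshold, with no pseudocount and no input filter. Counts carry 95% exact Poisson intervals. Ratios carry Clopper-Pearson intervals on reads rounded to whole numbers. A count of 0 was given a separate floor of 3 reads, which is below the upper end of its exact Poisson interval. Reads are not independent molecules. With 1 analysed library per group there was no test. Gene positions are from the RefSeq table of GRCm38.p6.

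The members and lists were chosen with earlier results of these data known, and the DMR windows were set by hand from memory, so their edges are approximate. All 10 genes were named, with, per locus, the bins of highest shared fold, the starts and the DMR bins, and, of each list, the highest 2 and lowest 1. Added with the data in view were the ratio of lines, its ranks among windows, the start-bin background, the 5-read minimum, the motif searches, the sequences shown and the count of bins at 0. Alternatives changed the local background, pseudocount, threshold, input filter, flank, scaling and the correction for surroundings. The fold was tested on simulated data for chromosome 19: with anti-FLAG 50% (Cas9) and 54% (RGM) of bins raised 2 times passed, and 100% in both of bins raised 3 times. Python 3.11.15, numpy 2.4.6, pandas 2.3.3, scipy 1.17.1 and matplotlib 3.10.9 were used.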

Additional observations from a re-analysis of the deposited data

Results flagged for a closer look

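At 3 bins 1 line had a local fold of at least 2 and the other a fold below 1, with an interval that holds 1, under the same antibody. The difference between lines was not tested. The Mest bin from 30,735,001 had an anti-FLAG local fold of 2.42 in Cas9 and 0.814 in RGM. The Impact bin from 12,973,001 had 0.989 in Cas9 and 2.05 in RGM with anti-FLAG. The Plagl1 bin from 13,108,001 had 0.895 in Cas9 and 2.36 in RGM with wild-type anti-GZF1. At that Plagl1 bin the anti-FLAG folds were 1.46 in both lines, and at the Mest bin wild-type anti-GZF1 had 1.62 and 1.21. The Mest bin also had 0.764 in the knockout and 1.30 in the control.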

How the results depend on the processing

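The number of gene window bins past the fold depended on the settings. In the order Cas9 anti-FLAG, Cas9 wild-type anti-GZF1, input, control, knockout, H3K27ac, RGM anti-FLAG and RGM wild-type anti-GZF1 it was 57, 90, 224, 34, 42, 83, 53 and 141 at a threshold of 1.5. At a threshold of 3 it was 0, 0, 9, 0, 0, 1, 1 and 7, and with a pseudocount of 0.5 it was 4, 6, 44, 0, 1, 6, 5 and 17. Bins past the fold in both lines were 21 with anti-FLAG and 34 with anti-GZF1 at 1.5, and 0 and 0 at 3. With the input filter (0.25 to 3) they were 2 and 3, and single libraries had 9 in Cas9 anti-FLAG, 9 in Cas9 wild-type anti-GZF1 and 7 with H3K27ac. The 4 shared anti-FLAG bins became 7 with a background of 20 bins on each side, 2 with 5 bins on each side, 1 with the pseudocount, and 1 among start bins only. With 5 bins on each side Cas9 anti-FLAG had 5 and the knockout 2, and without the flank the knockout had 2. Input had 67 when the lower bound also had to exceed the background and 35 where the background held at least 5 reads.

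Knockout ratios turned direction relative to the chromosome median for the Sgce (1.08) and Impact (0.989) gene windows and relative to the surrounding 1 Mb for Gzf1 (1.00). RGM over Cas9 with anti-FLAG turned direction relative to the surrounding 1 Mb for the Dlk1-Meg3 bin (0.968) and the Peg10-Sgce start bin (0.969). Among gene windows the same step moved the interval to the other side of 1 for Usp29 (0.881 to 1.12) and Sgce (1.33 to 0.949) with anti-FLAG and Usp29 (0.851 to 1.07) with anti-GZF1. No density or local fold turned direction, but many densities shifted with the scaling. Of 136 densities 69 counted as moved when scaled to the chromosome mean, and 55 when scaled to the autosomal median. Of 384 local folds 34 counted as moved with 5 bins on each side. The depth of input, at 3.93 reads per bin, limits what a single bin can show. No paired analysis was possible because each group has 1 library among those analysed.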
